A study of Mus musculus with 8 samples.

Results

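The genes examined were the muscarinic acetylcholine receptors Chrm1, Chrm2, Chrm3 and Chrm4, the G protein α subunits Gnaq and Gna11, the phospholipases Plcb1 and Plcb4, and the inositol trisphosphate (IP3) receptors Itpr1 and Itpr2. These 10 genes were chosen by symbol, without use of their values but with earlier results of these data known. All 10 were found among the 45706 genes of the count and TPM tables. On counts, for none of them was the difference between CNO-treated and vehicle-treated mice larger than the spread between libraries. In TPM, every CNO library was below every vehicle library for Gnaq. The share of all genes with such a gap in TPM was not counted.

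Muscarinic receptors are receptors for acetylcholine that act through G proteins. The M1 and M3 receptors, encoded by Chrm1 and Chrm3, couple to Gq proteins, which activate phospholipase C β. This enzyme cleaves the membrane lipid PIP2 into IP3 and diacylglycerol, and IP3 opens calcium channels of the endoplasmic reticulum. The M2 and M4 receptors, encoded by Chrm2 and Chrm4, couple to Gi/o proteins and reduce cyclic AMP. The designer receptor hM3Dq, derived from the human M3 receptor, does not respond to acetylcholine but to the drug CNO, and signals through the Gq chain.

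Ribosome-associated mRNA was taken from PV+ interneurons of primary somatosensory cortex (S1), which are fast-spiking inhibitory neurons that contain parvalbumin. All mice were PvalbFlp/+;Neurod6Cre/+ and had been infected at P1 with an AAV8 that carried HA-RPL10a and hM3Dq together under the human synapsin promoter. The vector was switched on by Flp in Pvalb cells and removed by Cre in Neurod6 cells, so that HA-tagged ribosomes could be pulled down from PV+ interneurons. Mice aged P42 to P70 received 5 injections of CNO (1 mg per kg) over about 48 h, or vehicle. Each library was made from several pooled brains, and there were 4 libraries in each group. Both groups carried the receptor and both Cre and Flp, so the labels set the groups apart by the drug only. The infection was sparse, and the level of the vector in each library was not measured separately.

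Library totals lay between 44064138 and 49413277 counts, and 3 counts corresponded to 0.0607 to 0.0681 CPM (counts brought to the same total in each library). The summed TPM (a level per transcript length, on a common total) of 10 PV+ interneuron markers was 2572 to 3994 in the CNO libraries and 2936 to 3170 in vehicle replicates 2 to 4, but 1193 in vehicle replicate 1. The 10 markers were Pvalb, Gad1, Gad2, Slc32a1, Lhx6, Syt2, Kcnc1, Erbb4, Cox6a2 and Btbd11. Gad1, at a mean of 1227 TPM over all libraries, was above Pvalb, at 907 TPM. Whether the list measures PV+ interneurons apart from other inhibitory neurons was not tested. Pvalb itself stood at 300.1 TPM in vehicle replicate 1 and at 820 to 1160 TPM in the other 7. The summed TPM of 11 pyramidal cell markers was 1413 to 1951 in the CNO libraries and 1600 to 2282 in the vehicle libraries, with vehicle replicate 1 the highest, and no marker of either list was at 0 in any library. Markers of pyramidal cells were therefore present beside those of the labelled cell type, and vehicle replicate 1 stood apart from the rest. Fos, the immediate early gene that marks activated neurons, was 1.93 ± 0.22 (SE) higher in CNO on the log2 scale (adjusted p = 0.0520, edgeR quasi-likelihood test). In pooled tissue, fewer cells of a type and less RNA per cell cannot be told apart.

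The receptor genes are printed over the same 54 bases of coding sequence, to show how alike they are around the conserved aspartate-arginine-tyrosine motif. The bases run from 12 codons before this motif to 3 codons after it. Capitals mark the 36 bases that all 4 receptors share. The sequences were read from GENCODE transcripts on GRCm38, in the direction of the coding strand.
Chrm1, chr19:8678260-8678313, plus strand: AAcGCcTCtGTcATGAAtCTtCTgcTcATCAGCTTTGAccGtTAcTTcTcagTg
Chrm2, chr6:36523531-36523584, plus strand: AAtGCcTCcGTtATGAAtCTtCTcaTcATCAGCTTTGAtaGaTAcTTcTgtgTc
Chrm3, chr13:9878492-9878545, minus strand: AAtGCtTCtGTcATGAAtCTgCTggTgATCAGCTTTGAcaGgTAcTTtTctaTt
Chrm4, chr2:91927594-91927647, plus strand: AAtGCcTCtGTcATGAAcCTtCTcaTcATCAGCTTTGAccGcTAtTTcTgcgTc

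Chrm3 differed from Chrm1 at 11 of these bases, from Chrm2 at 13 and from Chrm4 at 14. Over the whole protein the residues of the M1 and M3 receptors were 60.4% identical and those of the M2 and M4 receptors 63.6% identical, against 50.3% to 54.7% for the other pairs. Read in the direction of each transcript, no stretch of 31 bases was common to any of the 4 receptor genes. In that direction, reads of 31 bases or more that match exactly could be assigned to one of them. In the same direction Chrm2, Chrm3 and Chrm4 shared no such stretch with any other annotated gene. Opposite strands were not compared, although the reads do not mark strand. Gnaq and Gna11 had 16 stretches in common, Plcb1 and Plcb4 had 2, and Itpr1 and Itpr2 had 0.

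Chrm1 (ENSMUSG00000032773) lies at chr19:8663789-8683587 on the plus strand, Chrm2 (ENSMUSG00000045613) at chr6:36388084-36528414 on the plus strand, Chrm3 (ENSMUSG00000046159) at chr13:9875486-10360847 on the minus strand and Chrm4 (ENSMUSG00000040495) at chr2:91927249-91928688 on the plus strand. Exons of Chrm1 overlap Gm22820, exons of Chrm2 overlap 9330158H04Rik, exons of Plcb1 overlap 9630028H03Rik, and exons of Itpr1 overlap Gm44040 and Gm44101. The library kit does not mark strand, so reads in these overlaps cannot be told apart and the values of these 4 genes are uncertain to that extent.

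All 10 genes were expressed in every library, and the order of levels within each step of the chain was given by TPM. Among the receptors Chrm3 was the highest, at 62.8 ± 9.66 TPM in CNO and 54.2 ± 13.5 TPM in vehicle (SD, n = 4). Chrm1 followed at 38.9 ± 4.47 TPM in CNO and 42.5 ± 2.20 TPM in vehicle. The Gi/o-coupled receptors were lower, with Chrm4 between 8.41 and 12.6 TPM and Chrm2 between 4.61 and 10.6 TPM over the 8 libraries. Chrm5, the remaining muscarinic receptor, did not pass the filter on low counts.

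Gna11 was higher than Gnaq, 52.1 to 59.1 TPM against 35.0 to 53.0 TPM. Plcb1, the most abundant gene of the chain, ranged from 117 to 187 TPM and Plcb4 from 47.3 to 86.8 TPM. Itpr1 ranged from 31.3 to 54.0 TPM and Itpr2 from 5.80 to 14.7 TPM. Each of the 6 pairs of neighbours in this order differed over the 8 libraries (two-sided exact sign-flip permutation test, adjusted over 6 pairs, p from 0.0117 to 0.0234). The mean ratios were 1.41 for Chrm3 to Chrm1, 3.87 for Chrm1 to Chrm4, 1.38 for Chrm4 to Chrm2, 1.30 for Gna11 to Gnaq, 2.35 for Plcb1 to Plcb4 and 4.41 for Itpr1 to Itpr2. Chrm3 exceeded Chrm1 in 7 of 8 libraries, by 1.18 to 1.94 times, and the exception was vehicle replicate 1, where the ratio was 0.773.

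The order of Chrm3 and Chrm1 depended on the transcript length behind the TPM values. Dividing counts by TPM, and scaling by 438 genes with a single long transcript, estimates the mean length that the quantification assigned to a gene. The scale is approximate. Over those genes the estimate was 0.931 to 1.02 of the annotated length (10th to 90th percentile). For Chrm4, with a single transcript of 1440 nt, it was 1301 to 1325 nt. This transcript also holds coding sequence without untranslated regions, and the TPM of Chrm4 and its order to Chrm2 rest on it. For Chrm3 this length was 1661 to 1916 nt, with a median of 1731 nt. Its annotated transcripts measure 584, 1770, 2503 and 4336 nt, and the one of 1770 nt holds the coding sequence without untranslated regions. The median was 39.9% of the longest Chrm3 transcript, a value at or below which lay 9.17% of 9998 genes with more than 1 transcript and at least 200 counts in every library, against a median of 76.4% over those genes. For Chrm1 the length was 4768 to 4965 nt, between its transcripts of 4159 and 6271 nt, and for Chrm2 5588 to 5763 nt, near its full transcript of 5676 nt. With counts per kilobase of the longest annotated transcript instead of TPM, Chrm3 was lower than Chrm1 in 7 of 8 libraries, with a mean ratio of 0.738 (exact sign-flip permutation p = 0.0156). The vector carries a receptor coding sequence derived from M3. Whether its reads were counted with Chrm3, and whether they set this length, was not tested, because no vector sequence was used.

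**Figure D1:**
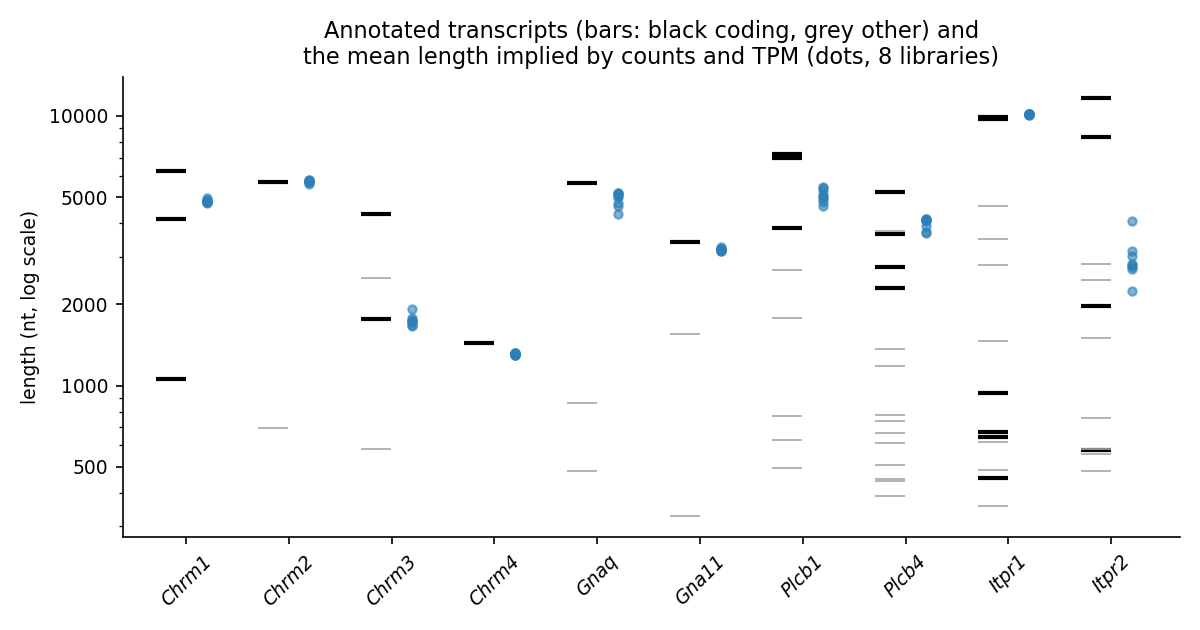
For each of the 10 genes, bars on the left mark annotated GENCODE transcripts (black coding, grey other) and dots on the right mark the mean length implied by counts and TPM in each of the 8 libraries, in nucleotides on a log axis. The Chrm3 dots, 1661 to 1916 nt, sit beside the coding-only transcript of 1770 nt and well below the full transcript of 4336 nt.

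The length assigned to Itpr2 varied most between libraries, from 2241 nt in vehicle replicate 1 to 4075 nt in CNO replicate 1, with annotated transcripts up to 11679 nt. Gnaq was assigned 4320 nt in vehicle replicate 1 and 4646 to 5198 nt in the other 7 libraries. TPM of these genes is divided by the assigned length, while the comparison of CNO with vehicle was made on counts without a correction for length. The 2 scales gave unlike log2 differences. For Gnaq it was -0.10 on counts and -0.25 with limma on log2(TPM + 1), and for Itpr2 -0.19 and -0.43. The median over all genes tested was 0.00145 on counts and -0.063 with limma on log2(TPM + 1). Which scale lies nearer to the mRNA level was not tested. For Itpr1 the implied length was 10107 to 10158 nt in all libraries, past its longest annotated transcript of 9870 nt.

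The first comparison asked whether CNO given to mice with the Gq-coupled receptor in PV+ interneurons changed the mRNA of the receptors and of the chain they use. Of the 10 genes, 0 passed an adjusted p of 0.05 and 0 passed an unadjusted p of 0.05, against 4.09% of the 17495 genes tested (edgeR quasi-likelihood test). In CPM the 4 CNO libraries did not lie wholly above or below the 4 vehicle libraries for any of the 10 either, against 2.42% of all genes. In TPM they lay wholly below for Gnaq, and the share of all genes without overlap in TPM was not counted. Over all genes 0 passed the thresholds (adjusted p under 0.05, more than 1.5-fold, mean TPM above 1) and 716 had an unadjusted p under 0.05. The likelihood ratio test with robust dispersion called 12 genes (0.0686%) and DESeq2 called 10 (0.0572%), of which 0 belonged to the 10 genes. By these tests, too, 0 of the 10 had an unadjusted p under 0.05, against 4.81% and 4.77% of all genes in that order. The log2 fold change was above 0 for 4 genes and below 0 for 6, with a median of -0.04, against 50.4% of all genes above 0 and a median of 0.00145 over all genes.

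The 95% interval of the fold change lay within 1.5-fold in both directions for 7 of the 10 genes. It reached past 1.5-fold higher for Chrm2 and Chrm3 and past 1.5-fold lower for Itpr2, so for these 3 genes a change of that size in that direction could be neither shown nor set aside with 4 libraries a group.

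**Figure D2:**
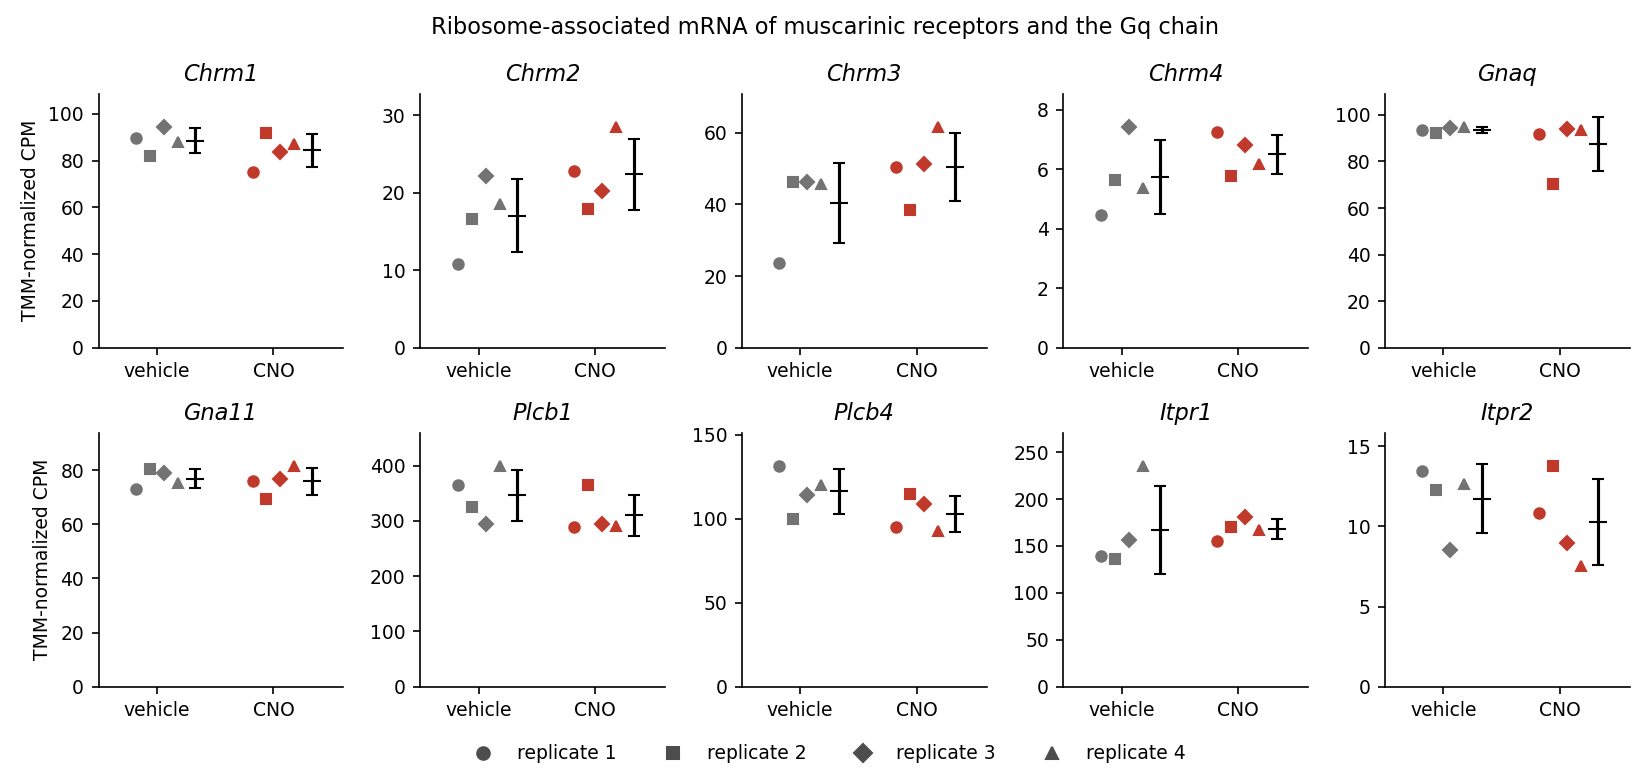
TMM-normalized CPM of the 10 genes in the 4 vehicle (grey) and 4 CNO (red) libraries, with marker shape for the replicate number and the mean ± SD beside each group. The groups overlap in every panel, and vehicle replicate 1 is the lowest library for Chrm2, Chrm3 and Chrm4.

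Among the Gq-coupled receptors, Chrm3 stood at 50.3, 38.5, 51.4 and 61.7 CPM in CNO replicates 1 to 4 and at 23.5, 46.2, 46.2 and 45.6 CPM in vehicle replicates 1 to 4. Vehicle replicates 2 to 4 were nearly equal, vehicle replicate 1 was far below them, and CNO replicate 2 lay between. The difference was 0.32 ± 0.21 (SE) on the log2 scale (95% interval -0.14 to 0.79, adjusted p = 0.817, edgeR quasi-likelihood test; exact permutation p = 0.286). Without vehicle replicate 1 it was 0.13 (unadjusted p = 0.340, the same test), and without CNO replicate 4 it was 0.21.

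Chrm1 stood at 74.9, 91.7, 83.4 and 87.2 CPM in CNO and at 89.7, 81.9, 94.5 and 88.1 CPM in vehicle. The groups overlapped almost entirely, and here vehicle replicate 1 was among the higher libraries. The log2 difference was -0.07 ± 0.09 (SE) with a 95% interval from -0.28 to 0.14 (adjusted p = 0.846, edgeR quasi-likelihood test), and it was -0.12 to -0.02 when single libraries were left out.

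Of the Gi/o-coupled receptors, Chrm2 stood at 22.9, 17.9, 20.2 and 28.5 CPM in CNO and at 10.8, 16.7, 22.1 and 18.6 CPM in vehicle. CNO replicate 4 was the highest and vehicle replicate 1 the lowest, and the other 6 were interleaved. The log2 difference of 0.39 ± 0.21 (SE) was the largest of the 10, with a 95% interval from -0.06 to 0.85 (unadjusted p = 0.0844, adjusted p = 0.817, edgeR quasi-likelihood test). Without vehicle replicate 1 it was 0.22 (unadjusted p = 0.179, the same test), and without CNO replicate 4 it was 0.25. Chrm4 stood at 7.25, 5.77, 6.83 and 6.18 CPM in CNO and at 4.47, 5.66, 7.44 and 5.37 CPM in vehicle, with the highest value in a vehicle library and a log2 difference of 0.18 ± 0.17 (SE, adjusted p = 0.817, edgeR quasi-likelihood test). The Chrm4 value was 0.08 without vehicle replicate 1 and 0.33 without vehicle replicate 3.

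The share of each receptor in the summed TPM of Chrm1 to Chrm4 was compared as well, because the vector receptor is built on M3. Chrm3 made up 51.5% ± 4.24 of this sum in CNO and 47.0% ± 6.88 in vehicle (SD, n = 4), a difference of 4.51 percentage points (two-sided exact permutation p = 0.371, where the smallest possible was 0.0286). Without vehicle replicate 1 the difference was 1.29 percentage points. With counts per kilobase of the longest annotated transcript in place of TPM, Chrm3 made up 34.5% ± 3.86 in CNO and 30.2% ± 5.78 in vehicle (SD, n = 4, exact permutation p = 0.257), behind Chrm1 at 40.3% and 47.1%. In vehicle replicate 1 the share was 37.4%, and in the other 3 vehicle libraries it was 47.5% to 53.4%. Chrm1 made up 32.2% ± 4.45 in CNO and 38.1% ± 7.01 in vehicle (SD, n = 4, exact permutation p = 0.229). Chrm2 made up 7.10% in CNO and 5.99% in vehicle (exact permutation p = 0.114), and Chrm4 made up 9.13% and 8.91% (exact permutation p = 0.857). The mixture of receptors did not differ between CNO and vehicle beyond the spread of the libraries.

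**Figure D3:**
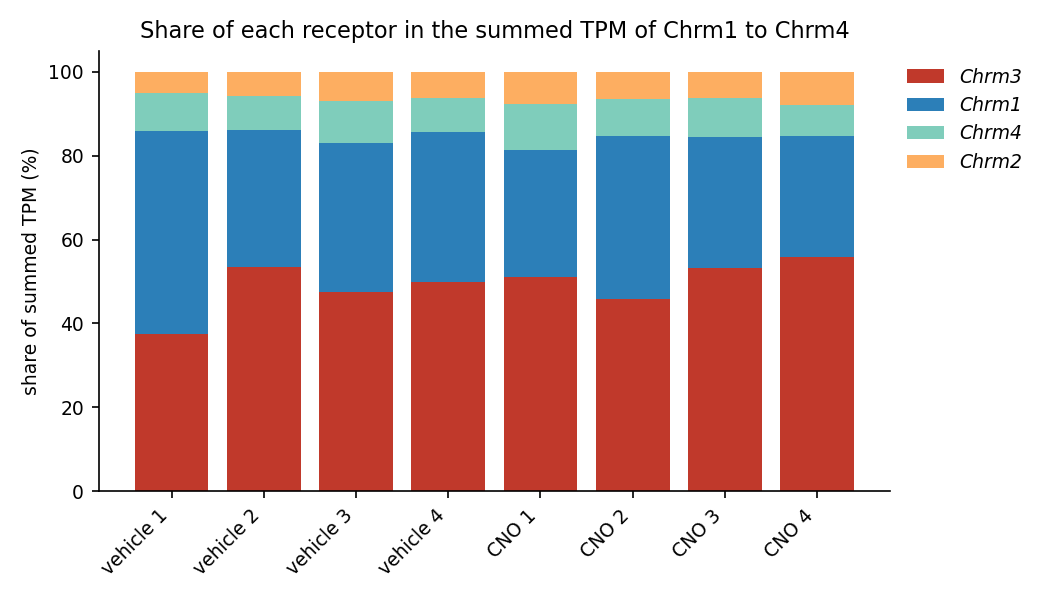
Stacked bars give the share (%) of Chrm3, Chrm1, Chrm4 and Chrm2 in the summed TPM of the 4 receptors in each vehicle and CNO library. Chrm3 makes up 45.9% to 55.9% in 7 libraries and 37.4% in vehicle replicate 1, where Chrm1 makes up 48.4%. With the longest annotated transcripts as lengths the Chrm3 share is 21.9% to 38.0%.

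Gnaq and Gna11 encode the α subunits that carry the signal from the receptor to phospholipase C. Gnaq stood at 92.0, 70.3, 94.1 and 93.6 CPM in CNO and at 93.4, 92.0, 94.3 and 95.0 CPM in vehicle. CNO replicate 2 lay below the other 7 libraries, which all lay between 92.0 and 95.0 CPM. The log2 difference was -0.10 ± 0.11 (SE, 95% interval -0.33 to 0.14, adjusted p = 0.822, edgeR quasi-likelihood test), and it was -0.0068 without CNO replicate 2. In TPM the CNO libraries, at 35.0 to 40.2, all lay below the vehicle libraries, at 41.6 to 53.0. With limma on log2(TPM + 1) the log2 difference of Gnaq was -0.25 (limma unadjusted p = 0.0284, adjusted p = 0.749). By the same fit the median over all genes tested was also below 0, at -0.063. Gna11 was nearly level, at 69.4 to 81.6 CPM in CNO and 72.9 to 80.6 CPM in vehicle, with a log2 difference of -0.02 ± 0.09 (SE, adjusted p = 0.956, edgeR quasi-likelihood test).

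Plcb1 and Plcb4 encode phospholipase C β enzymes, which G proteins of the Gq class activate. Plcb1 stood at 289, 366, 294 and 291 CPM in CNO and at 365, 325, 295 and 400 CPM in vehicle. CNO replicates 1, 3 and 4 were close together and CNO replicate 2 was as high as vehicle replicate 1, so the groups overlapped. The log2 difference was -0.16 ± 0.13 (SE, adjusted p = 0.817, edgeR quasi-likelihood test), and it was -0.25 without CNO replicate 2 and -0.08 without vehicle replicate 4. Plcb4 was between 93.0 and 115 CPM in CNO and between 99.7 and 132 CPM in vehicle, where vehicle replicate 1 was the highest, and had a log2 difference of -0.18 ± 0.11 (SE, adjusted p = 0.817, edgeR quasi-likelihood test), which was -0.12 without vehicle replicate 1.

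Itpr1 and Itpr2 encode IP3-gated calcium channels. Itpr1 stood at 155, 170, 181 and 167 CPM in CNO and at 139, 137, 156 and 236 CPM in vehicle. The group means were alike, 168 ± 10.7 and 167 ± 46.7 CPM (SD, n = 4), but the vehicle libraries spread further because of vehicle replicate 4. The log2 difference was 0.01 ± 0.17 (SE, adjusted p = 0.989, edgeR quasi-likelihood test). Itpr2, the lower of the pair, stood at 7.53 to 13.8 CPM in CNO and 8.56 to 13.5 CPM in vehicle, a log2 difference of -0.19 ± 0.20 (SE, adjusted p = 0.822, edgeR quasi-likelihood test). The Itpr2 value was -0.08 without CNO replicate 4 and -0.37 without CNO replicate 2, and the Itpr1 value was 0.22 without vehicle replicate 4.

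**Figure D4:**
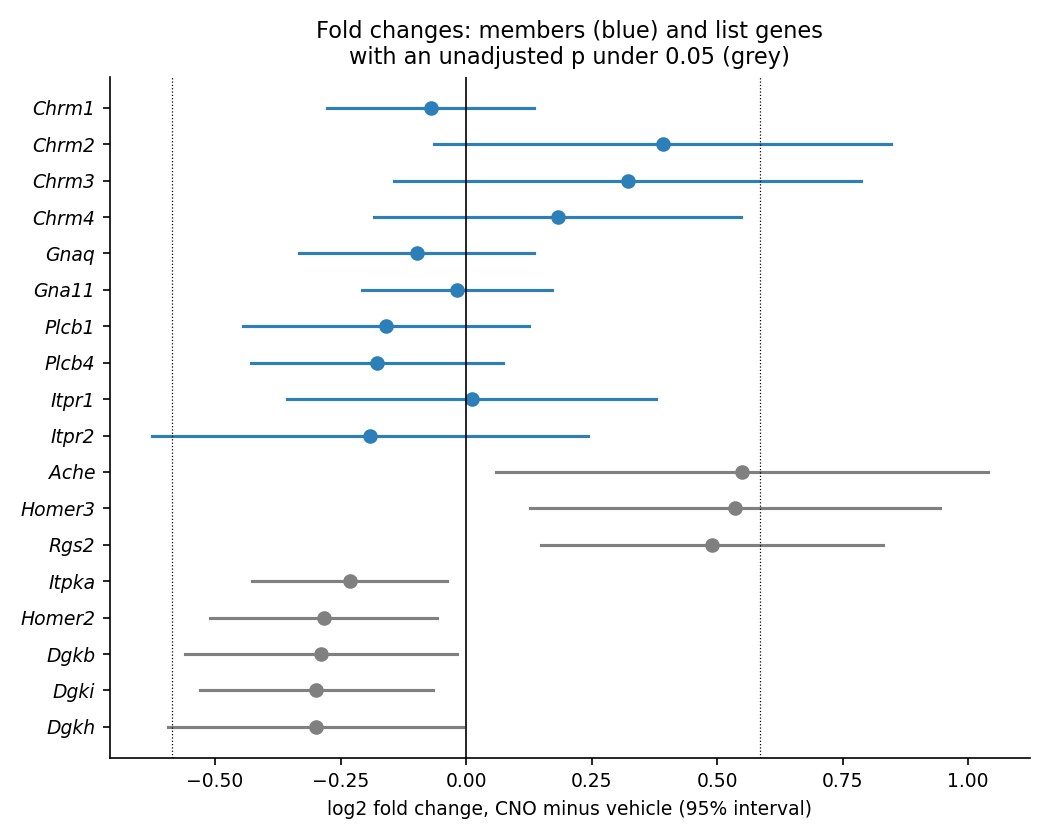
Log2 fold change of CNO over vehicle with its 95% interval for the 10 genes (blue) and for the genes of the wider pathway list with an unadjusted p under 0.05 (grey), with dotted lines at 1.5-fold. All 10 blue intervals cross 0, and those of Chrm2, Chrm3 and Itpr2 reach past a dotted line.

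The libraries differed in their level of the PV+ interneuron markers, and the receptors were compared with it. The marker index, the mean log2 CPM of the 10 PV+ interneuron markers minus that of the 11 pyramidal cell markers, was -0.47 in vehicle replicate 1 and 0.82 to 1.98 in the other 7 libraries. All 10 PV+ interneuron markers had a log2 fold change above 0 (median 0.49, 1 with an unadjusted p under 0.05), and 10 of 11 pyramidal cell markers had one below 0 (median -0.14, 0 with an unadjusted p under 0.05). Slc17a7, the vesicular glutamate transporter of pyramidal cells, had a log2 fold change of -0.20. Markers of astrocytes were above 0 in 3 of 8 genes, of oligodendrocytes in 0 of 6, of microglia in 0 of 6, of SST+ and VIP+ interneurons in 3 of 5 and of blood vessels in 5 of 5, and of these 30 genes 1, in microglia, had an unadjusted p under 0.05. Rpl10a, whose coding sequence the vector also carries, ranged from 301 TPM in vehicle replicate 1 to 1295 TPM in CNO replicate 4. Its log2 fold change was 0.47 ± 0.32 (SE, unadjusted p = 0.165, edgeR quasi-likelihood test).

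Over the 8 libraries Chrm3 rose with Rpl10a, with Pearson r = 0.991 and Spearman rho = 0.881 (exact permutation over 40320 orders, adjusted p = 0.00198 and 0.0290 over 20 relations). Without CNO replicate 4 and vehicle replicate 1, the libraries farthest from the median of Rpl10a, r was 0.912 and no longer passed (exact permutation adjusted p = 0.194). Without vehicle replicate 1 alone r was 0.963 (exact permutation adjusted p = 0.0198). Among 15171 other genes with a mean TPM above 1, 7 had a higher r with Rpl10a than Chrm3, while 14.2% of all genes had an r above 0.9. Chrm3 in TPM amounted to 5.80% to 8.53% of Rpl10a in 7 libraries and to 11.4% in vehicle replicate 1. The part of the vector and that of the cells' own Chrm3 in this relation cannot be told apart in these tables.

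Chrm3 also rose with the marker index (r = 0.982, exact permutation adjusted p = 0.00364; rho = 0.833, adjusted p = 0.0513), and r was 0.826 without the same 2 libraries. Chrm2 was related to the marker index more evenly, with r = 0.976 and rho = 0.976 (exact permutation adjusted p = 0.00198 and 0.00794), and r was 0.876 without the 2 libraries (exact permutation adjusted p = 0.194). With Rpl10a, Chrm2 had r = 0.946 and rho = 0.881 (exact permutation adjusted p = 0.00893 and 0.0290), and r was 0.605 without the 2 libraries, the largest loss of the 4. Without vehicle replicate 1 alone, Chrm2 with Rpl10a had r = 0.842 (exact permutation adjusted p = 0.0694). An r above 0.9 with the index was common, at 15.6% of genes with a mean TPM above 1. Of the 20 relations, 4 passed an adjusted p of 0.05 by Pearson r with all 8 libraries and 0 without the 2 outer ones, where 6 libraries were left.

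Chrm1 behaved otherwise, with r = -0.29 to the index (rho = -0.33) and -0.24 to Rpl10a (rho = -0.24), with exact permutation adjusted p = 0.511 and 0.536. Chrm4 had r = 0.775 to the index and 0.731 to Rpl10a (exact permutation adjusted p = 0.0551 and 0.0774). Further down the chain the coefficients with the index were 0.17 for Gnaq, 0.57 for Gna11, -0.59 for Plcb1, -0.78 for Plcb4, 0.37 for Itpr1 and -0.71 for Itpr2. None of these 6 passed by Pearson r, while Itpr2 passed by rank (rho = -0.88, exact permutation adjusted p = 0.0290). With Rpl10a none of the 6 passed by Pearson r either, and Itpr2 again passed by rank (rho = -0.93, exact permutation adjusted p = 0.0223). Without vehicle replicate 1 alone, Itpr2 with Rpl10a had r = -0.884 (exact permutation adjusted p = 0.0198). With the marker index as a covariate the log2 fold change of Chrm2 was 0.08 and that of Chrm3 -0.01, against 0.39 and 0.32 without it. The PV+ interneuron markers in the index also had log2 fold changes above 0. The part of the drug and that of marker content therefore cannot be told apart. The part of the index in the CNO comparison was not tested beyond these values.

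**Figure D5:**
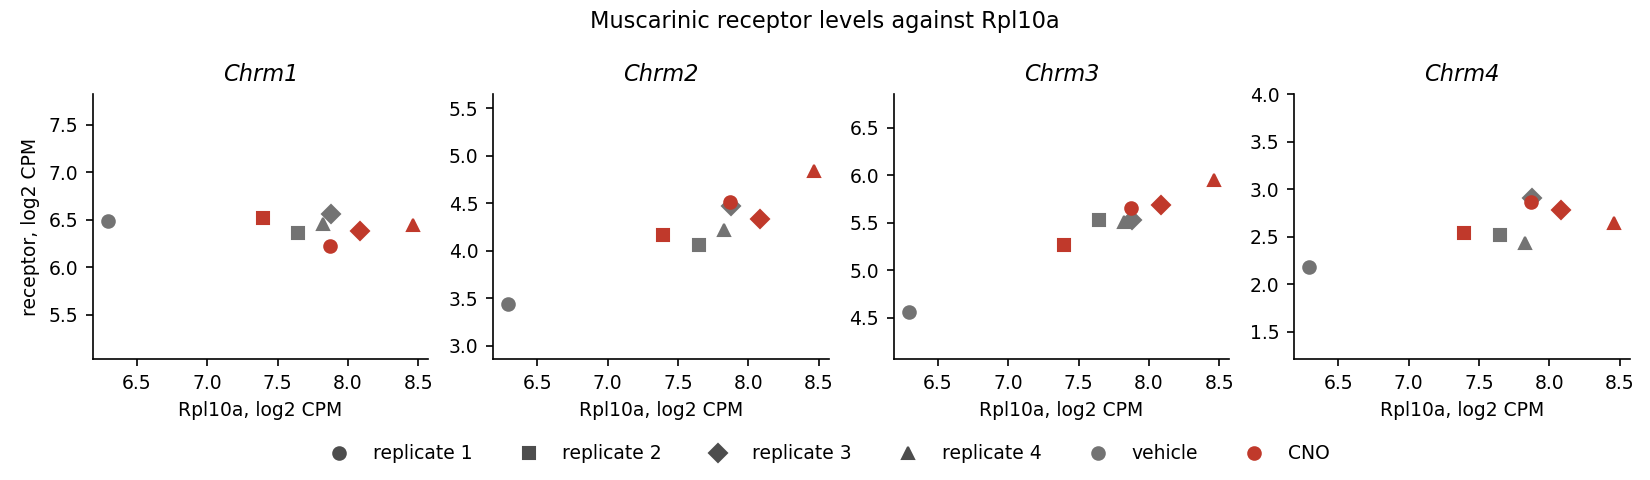
Log2 CPM of each muscarinic receptor against log2 CPM of Rpl10a in the 4 vehicle (grey) and 4 CNO (red) libraries, on vertical axes of equal span. Chrm3 (r = 0.991) and Chrm2 (r = 0.946) climb from vehicle replicate 1 at the lower left to CNO replicate 4 at the upper right, and Chrm1 (r = -0.24) does not.

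The genes whose log2 CPM followed each receptor most closely over the 8 libraries were taken from 15173 genes with a mean TPM above 1. For Chrm3 they were Cgref1 (r = 0.995), Lysmd2 (0.995) and Ubl7 (0.994), and Rpl10a ranked 19. For Chrm2 they were Tmem63b (0.991), Fam168b (0.989) and Cdr2l (0.989). For Chrm1 they were Kit (0.952), Sapcd2 (0.951) and Scarf1 (0.941), and for Chrm4 Polr1e (0.966), Glrx5 (0.951) and Cbx8 (0.942). Being the highest of so many coefficients over 8 libraries, these are given as a description only.

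A list of 94 further genes covered the rest of the chain, from receptor kinases to the channels that Gq signalling regulates. Of these, 92 were tested, and Chrm5 and the vesicular acetylcholine transporter Slc18a3 were not. None of the 92 passed the thresholds by the edgeR quasi-likelihood test, the likelihood ratio test or DESeq2. By the quasi-likelihood test 8 (8.70%) had an unadjusted p under 0.05, 3 of them higher in CNO against 1.44% of all genes, and 5 lower against 2.65%. The groups did not overlap for 5 genes (5.43%), 1 higher against 0.789% of all genes and 4 lower against 1.63%. The log2 fold change was above 0 for 30 and below 0 for 62, with a median of -0.07.

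Of the proteins that limit Gq signalling, Rgs2, which speeds the inactivation of Gαq, was 0.49 ± 0.15 (SE) higher in CNO on the log2 scale (unadjusted p = 0.00916, adjusted p = 0.817, edgeR quasi-likelihood test). It stood at 66.7, 54.4, 65.9 and 84.0 CPM in CNO and at 36.5, 49.9, 55.6 and 51.0 CPM in vehicle, so that the groups overlapped only between CNO replicate 2 and vehicle replicate 3. The other 6 RGS genes had log2 values below 0, to -0.21 for Rgs4, the most abundant of them at 261 TPM. For Rgs4 and Rgs7 every CNO library was below every vehicle library (exact permutation p = 0.0286, the smallest possible). Receptor kinases and arrestins gave 4 values above 0 and 2 below, with 0 of 6 at an unadjusted p under 0.05. Their most abundant genes, Grk2 (listed as Adrbk1) and Grk6, had log2 values of -0.09 and 0.10.

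Downstream of phospholipase C, 3 of 12 genes of the diacylglycerol kinases and RasGRPs were lower at an unadjusted p under 0.05, against 2.65% of all genes. Diacylglycerol kinases remove the diacylglycerol that phospholipase C makes. These 3 were Dgkb (-0.29 ± 0.12), Dgkh (-0.30 ± 0.13) and Dgki (-0.30 ± 0.11, log2 difference and SE), each with an adjusted p of 0.817 (edgeR quasi-likelihood test). For Dgki the CNO libraries, at 18.6 to 24.2 CPM, all lay below the vehicle libraries, at 24.7 to 28.9 CPM. The most abundant genes of the group, Dgkz and Rasgrp1, had log2 values of -0.12 each and an adjusted p of 0.817 and 0.830 in that order (edgeR quasi-likelihood test). The protein kinase C isoforms, which diacylglycerol activates, gave 2 values above 0 and 5 below, with Prkcb (532 TPM) at -0.08, and 0 of 7 at an unadjusted p under 0.05.

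Itpka, a kinase that phosphorylates IP3, had a log2 difference of -0.23 ± 0.09 (SE, unadjusted p = 0.0232, adjusted p = 0.817, edgeR quasi-likelihood test), and it was the only one of 6 genes of IP3 metabolism with an unadjusted p under 0.05. Impa1, which acts later in the recycling of inositol and was the most abundant of these at 116 TPM, had a log2 value of 0.30 ± 0.20 (SE). Among the proteins that bind IP3 receptors, Homer3 had a log2 value of 0.54 ± 0.19 (SE) and Homer2 had a log2 value of -0.28 ± 0.10 (SE, adjusted p = 0.817 for both, edgeR quasi-likelihood test). Homer3 was scarce, at 1.82 to 2.40 CPM in CNO and 1.27 to 1.72 CPM in vehicle, without overlap. Homer1 and Ahcyl1, far more abundant, had log2 values of -0.09 and 0.14. Of 10 genes of the calcium stores and their refilling, 4 were above 0 and 6 below, with the calcium pump Atp2a2 (264 TPM) at 0.13, the calcium sensor Stim2 (29.4 TPM) at -0.02 and 0 at an unadjusted p under 0.05. Genes of PIP2 synthesis lay between -0.10 and 0.01, with Pip5k1c at -0.03 and Pi4ka at 0.01.

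The channels that muscarinic signalling regulates gave no call. The M-current channels, which muscarinic receptors close, included Kcnq3 and Kcnq5, with log2 values of -0.04 and -0.08, and neither had an unadjusted p under 0.05. All 6 TRPC cation channels had a value below 0, with 0 of 6 at an unadjusted p under 0.05. Trpc1 (47.0 TPM) lay at -0.15, and Trpc7 at -0.51 without overlap between groups, at a mean of 0.835 TPM. Among the genes of acetylcholine handling, Ache, the enzyme that degrades acetylcholine, was 0.55 ± 0.22 (SE) higher on the log2 scale (unadjusted p = 0.0310, adjusted p = 0.817, edgeR quasi-likelihood test). Vehicle replicate 1 held its lowest value, 13.7 CPM, against 24.7 to 27.9 CPM in the other vehicle libraries and 27.5 to 46.0 CPM in CNO. Lynx1, the most abundant of this group and a regulator of nicotinic receptors, had a log2 value of 0.32 ± 0.27 (SE), and Chat, the enzyme that makes acetylcholine, was low, at 0.461 TPM.

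The family members outside the 10 genes were all low, with Chrm5, not tested, at 0.121 TPM and the 5 tested from 0.177 TPM for Gna14 to 5.05 TPM for Plcb3 and with Gna15 at 1.66 TPM, and 0 of 5 had an unadjusted p under 0.05. The Gi/o α subunits, which M2 and M4 use, were abundant, with Gnao1 at 222 TPM and Gnai1 at 121 TPM and log2 values of -0.02 and 0.05. Of 12 other receptors that couple to Gq, 3 had log2 values above 0 and 9 below, with 0 at an unadjusted p under 0.05. The most abundant of them, Cckbr and Grm5, had values of -0.09 each.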

How the data were processed

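The authors used Trim Galore for trimming, STAR for alignment to GRCm38, Salmon for quantification and tximport for sums per gene, with versions not given in the sources used here. The authors deposited estimated counts per gene without normalization, and TPM scaled to transcript length. All 8 columns were mapped to samples by name. The comparison of CNO with vehicle was made on rounded estimated counts in edgeR 4.0.16 (R 4.3.3). A gene was left out when it had under 10 counts in 4 or more libraries. TMM normalization and the quasi-likelihood test were applied to the remaining 17495 genes, with p-values adjusted over all of them by the method of Benjamini and Hochberg, after tests on simulated data. Log2 CPM carried a prior count of 2.

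For single values, two-sided exact permutation tests ran through all 70 assignments of libraries to groups. DESeq2 1.42.0, limma 3.58.1 on log2(TPM + 1) and other settings were alternatives. The replicate numbers of the 2 groups did not pair the samples. Libraries were pools of separate brains, so p-values and the intervals of fold changes measure the spread between pools, while the level that 3 counts stand for covers counting error only. Transcripts, positions and shared 31-base stretches came from GENCODE mouse release M21 on GRCm38, where 45143 of 45706 gene identifiers were found.

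The 10 genes and all lists were chosen with earlier results of these data known. Named were all 10 genes, Rpl10a, Fos, the 10 PV+ interneuron markers and Slc17a7. Also named were list genes with an unadjusted p under 0.05, the 2 most abundant genes of each role in the pathway list, and the 3 genes most like each receptor. Some genes that this rule names are not reported here. Genes of the pathway list named for groups without overlap (Rgs4, Rgs7, Trpc7), and Kcnq3, Kcnq5, Chat, Gna14 and Chrm5, were named after their values were seen.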

Additional observations from a re-analysis of the deposited data

Results flagged for a closer look

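In 26 groups of 4 libraries (the 10 genes and 3 further measures, in each treatment) 4 held a library far from the other 3 by Dixon's ratio, where about 1 in 20, or 1.3, would by chance. In the vehicle group Chrm3 was 4.56 log2 CPM in vehicle replicate 1 and 5.51 to 5.53 in the others, and Rpl10a was 6.29 in vehicle replicate 1 and 7.65 to 7.88 in the others. In the CNO group Gnaq was 6.14 log2 CPM in CNO replicate 2 and 6.52 to 6.56 in the others, and Plcb1 was 8.51 in CNO replicate 2 and 8.17 to 8.20 in the others. Vehicle replicate 1 also had the lowest PV+ interneuron markers, and CNO replicate 2 the second lowest marker index, 0.82. The part of either in these values was not tested.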

How the results depend on the processing

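No gene of the 10 passed an adjusted p of 0.05 under any of the 19 alternatives (lowest adjusted p 0.473, without CNO replicate 2, edgeR quasi-likelihood test). Over all genes the count called, 0 by the quasi-likelihood test, was 12 by the likelihood ratio test with robust dispersion, 10 by DESeq2, 4 with no filter on low counts, 3 with replicates 1 and 2 blocked against 3 and 4, and 0 to 2 when each library was left out, with 2 only without CNO replicate 1. Of the 10 genes, 1 had an unadjusted p under 0.05 with no filter, with that block, and without CNO replicate 2 or vehicle replicate 3 (Chrm2 each time), with limma on log2(TPM + 1) or log2(TPM + 0.1), and without vehicle replicate 1 with the marker index as a covariate (Gnaq each time); leaving out single libraries gave 0 to 1. The pathway list gave 3 to 14 genes when single libraries were left out, 14 without CNO replicate 2 and 3 without CNO replicate 4, and 6 to 12 under the other settings, against 8. The number of the 10 genes with a log2 value above 0 ranged from 3 to 5.

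The direction of 4 genes turned, none of them past the test. Chrm3, at 0.32, was -0.0052 with the marker index as a covariate. Gna11 was 0.022 without CNO replicate 2 (-0.063 to 0.022 over single libraries). Itpr1 was -0.039 by library size only, -0.023 with limma at either pseudocount, -0.080 with the marker index and -0.074 with the index and without vehicle replicate 1, and -0.081 to 0.22 over single libraries. Itpr2, at -0.19, was 0.0013 with the index and 0.026 with the index and without vehicle replicate 1. The last setting, and the length used for the receptors, were chosen after seeing the data; the log2 ratio of Chrm3 to Chrm1 was 0.50 in TPM and -0.44 per kilobase of the longest transcript. Relations past an adjusted p of 0.05 by Pearson r numbered 4, but 0 without the 2 outer libraries and 7 with Pvalb in place of the index. The causes were not tested.

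A replicate block gave 0 of the 10 genes and 0 over all genes, as without it, with Chrm2 at 0.41 and Chrm3 at 0.35, and 6 genes of the pathway list. The correlations of same-numbered libraries' deviations from their group means were 0.03, -0.03, 0.16 and 0.24 for replicates 1 to 4, so the numbers were not taken to pair them.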
